A study of Mus musculus with 121 samples.

Results

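The nuclear-encoded subunits of the respiratory chain and of ATP synthase were followed in cultured mouse fibroblasts under 3 schedules of medium change. Their genes were taken by symbol: those starting with Ndufa, Ndufb, Ndufc, Ndufs, Ndufv, Sdha, Sdhb, Sdhc, Sdhd, Uqcr, Cox4, Cox5, Cox6, Cox7, Cox8 or Atp5, without Ndufaf assembly factors and pseudogenes. Of 90 such genes, 82 reached 1 CPM (counts per 1000000 counts of the library) in at least 3 libraries and are the members described here, among 13292 genes tested. The rule uses the symbol and a minimum level, and no difference between groups. By role, 36 members belong to complex I, 4 to complex II, 8 to complex III, 12 to complex IV and 16 to complex V, while 6 are assembly or supercomplex factors whose symbols share these stems (Sdhaf1, Sdhaf2, Sdhaf3, Sdhaf4, Atp5s and Cox7a2l).

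Respiratory complexes I to IV pass electrons from NADH and succinate to oxygen in the inner mitochondrial membrane, and complex V uses the resulting proton gradient to make ATP. A small set of subunits of complexes I, III, IV and V is encoded by mitochondrial DNA, and all others, including the whole of complex II, are encoded in the nucleus, made in the cytosol and imported. In many tissues their transcripts are kept in step by shared promoter factors such as NRF1, ETS-family factors and YY1.

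The cells were fibroblasts of a Per2::Luc knock-in mouse (genotype PER2::LUC sv, passage P25), in which the clock protein PER2 carries luciferase. This is 1 immortalized line grown from ear tissue. All groups had 3 cycles of 24 h with medium renewed every 12 h and then ran free for 12 h before RNA was collected 6 times, 4 h apart. HL cells had a first half-day with high glucose and insulin and then one with low glucose and little or no insulin, LH cells had the reverse, and HH cells received the high levels at every change. The 62 libraries (21 HL, 22 LH, 19 HH) were made by 3′DGE, which samples transcripts at their 3′ ends, and a count then does not grow with transcript length and levels of different genes can be set side by side. The study's methods call replicates biological in general, and the labels do not tie libraries to cultures, so p-values measure the spread between these libraries. In such bulk samples fewer cells with a transcript and less of it per cell cannot be told apart.

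Library totals ran from 2136819 to 11619095 counts, except for LH collection 2 replicate 2 with 104912. Sample titles and the library numbers of the study's read summary disagree for most HL and LH libraries: 22 of 62 have the same name under both, among them every HH library, and 57 are listed by number. Titles were used first, and library numbers give the second set of values. By number, HL is made up of LH libraries by title, except at collection 1, where the names are the same. LH by number is made up of HL libraries by title, except at collection 6, whose libraries are LH by title as well. The 2 assignments thus largely exchange HL and LH, and their values are not independent. The hours in the titles are 20, 12, 4, 8, 12 and 16 for collections 1 to 6 in HL and HH, and 20, 12, 16, 20, 12 and 16 in LH, so those of collection 2 in every treatment and of LH collections 3 and 4 do not follow steps of 4 h. The order used here is that of the collection number in the title, and LH courses by title carry this doubt. One HH library, collection 6 replicate 3, stood apart from its group in the summed level of the members. All 10 fibroblast markers passed the filter, with a summed level between 9861 and 38620 CPM. In every library, the summed level of the keratinocyte markers stayed at or below 4.57 CPM, that of the skeletal muscle markers (Ckm and Myod1 at 0) at or below 1.95 CPM and that of the adipocyte markers at or below 10.8 CPM. Leukocyte markers summed to at most 7.06 CPM in HL, 124 CPM in LH and 5.95 CPM in HH. The medians were 4.207, 3.472 and 3.475 CPM in the same order, so 124 CPM is not typical of LH. Endothelial markers (22.9 to 270 CPM) and chondrocyte markers (294 to 1129 CPM) were present in each treatment, and their part in the results was not tested.

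Together the members took 0.968% to 1.64% of a library's counts. Their mean CPM over the 62 libraries had a median of 108.6, against 15.4 for all genes tested. The most abundant was Cox4i1, a structural subunit of complex IV, at 673.5 ± 108 CPM (SD, n = 62), between 467.7 and 1011 CPM. Next came Cox6a1 at 610 ± 87.2 CPM and Cox6c at 559.9 ± 66.3 CPM, also small subunits of complex IV. Ndufa13, an accessory subunit of complex I, had 530.7 ± 65.2 CPM, and Atp5j2, the f subunit of the membrane part of ATP synthase, 525.5 ± 55 CPM. Within libraries, Cox4i1 was above Ndufa13 and Atp5j2 in 62 of 62, above Cox6c in 54 and above Cox6a1 in 41. Neighbours further down were less clearly ordered, with Cox6a1 above Cox6c in 48 libraries, Cox6c above Ndufa13 in 43 and Ndufa13 above Atp5j2 in 35.

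By complex, the median of the mean levels was 80.9 CPM for complex I, 72.9 CPM for complex II, 134 CPM for complex III, 141 CPM for complex IV and 181 CPM for complex V. Within each complex the subunits, which are assembled in fixed proportions, differed widely in transcript level. In complex II, Sdhb, the iron-sulfur subunit, had 143.8 ± 18.1 CPM and Sdhd, a membrane anchor, 7.94 ± 4.29 CPM. In complex III, Uqcrh, the hinge subunit, had 511.2 ± 61.5 CPM, while Uqcrfs1, the Rieske iron-sulfur protein, had 16.4 ± 5.85 CPM. In complex I, Ndufs5 was lowest at 6.72 ± 2.09 CPM. The lowest members were Cox6a2 at 0.855 ± 0.738 CPM, Atp5s (coupling factor B) at 2.5 ± 1.63 CPM, Atp5g2 at 4.08 ± 1.68 CPM, Sdhaf3 at 4.42 ± 2.32 CPM and Sdhaf1 at 4.9 ± 2.11 CPM. Of these, Cox6a2 reached 1 CPM in 23 of 62 libraries, Atp5s in 53 and Atp5g2 in 60, and they are the members closest to the filter.

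**Figure D1:**
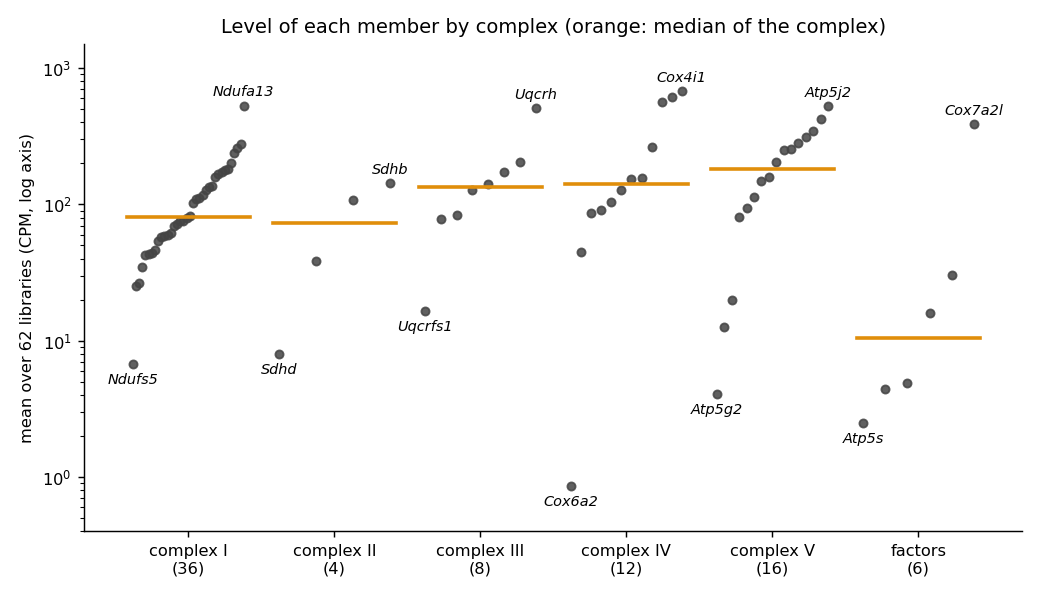
Mean CPM of each of the 82 members over 62 libraries (log axis), by complex; orange bars are medians of the complex, and the lowest and highest gene of each is named. Levels within a complex span from 6.72 (Ndufs5) to 530.7 CPM (Ndufa13) in complex I and from 0.855 (Cox6a2) to 673.5 CPM (Cox4i1) in complex IV.

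A limit of the counts bears on some of these levels. Of the 82 members, 21 have a near copy (at least 95% identity over 100 bases) of the last 200 bases of a coding transcript in another annotated gene, which is a copy elsewhere or a gene that overlaps the member, and in 9 this holds for every coding transcript (Atp5h, Atp5l, Atp5o, Cox5a, Cox6a1, Cox7c, Ndufb11, Ndufb6 and Ndufs3). The deposited counts are named as those of uniquely aligned reads, so the levels of these 21 genes are uncertain, since reads may be lost to or gained from the copy. Of genes named in what follows and not among these 9, near copies were found for 3 of 4 coding transcripts of Atp5g2, 2 of 4 of Atp5g1, 1 of 2 each of Atp5k, Ndufc1 and Ndufa12, and 1 of 4 each of Ndufb8 and Ndufs5. A further limit is that 30 members share exon bases with another gene, mostly on the opposite strand, and the use of strand in counting is not given in the sources used here. Ndufa2 with Tmco6, Sdhaf1 with E130208F15Rik and Uqcrb with Gm10767 are such pairs on opposite strands.

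Several complex IV subunits and the c subunit of ATP synthase exist as alternative genes for different tissues or conditions. In each such pair of complex IV the general form was the one measured at high level. Cox4i1 had 686.5 ± 95.3 CPM in HL, 691.7 ± 133 CPM in LH and 638.1 ± 84.3 CPM in HH, and Cox4i2, the form linked to low oxygen, had 16 counts in 5 libraries in all. Cox6a1 exceeded the muscle form Cox6a2 in each treatment, with a ratio of means from 659.2 (HH) over 691.2 (HL) to 794.8 (LH). For Cox7a2 and the muscle form Cox7a1 it was 1187 (HL), 1190 (LH) and 587.9 (HH), on 25, 29 and 42 counts of Cox7a1. Of the 42 counts, 28 were in HH collection 6 replicate 3 (5.98 CPM), and without this library the ratio in HH was 1927. Cox8a had 147 ± 36 CPM in HL, 158.9 ± 51 CPM in LH and 164.1 ± 64.7 CPM in HH, whereas Cox8b had 0 of 358360816 counts, which allows up to 0.00837 CPM over all libraries. Cox6b1 (154.7 ± 32 CPM) stood against 76 counts of the testis form Cox6b2. Ndufa4, now known as a subunit of complex IV, had 42.6 ± 12.3 CPM in HL, 43 ± 12.4 CPM in LH and 49.8 ± 23.9 CPM in HH, and its relative Ndufa4l2 had 47 counts in all.

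Apart from Cox6a2, these other forms are among the 8 genes of the rule that did not reach the minimum. The remaining ones were Cox8c with 1 count, Cox7b2 with 16 counts and a second entry named Atp5o (ENSMUSG00000116933) with 0. The 3 genes for the c subunit, whose mature proteins are identical, differed in level. Atp5g3 had 271.8 ± 53.1 CPM in HL, 279.3 ± 71.7 CPM in LH and 288.9 ± 82.2 CPM in HH. Atp5g1 had 169.9 ± 24.3, 150.8 ± 19.9 and 158.1 ± 28.7 CPM in the same order, and Atp5g2 had 4.3 ± 1.72, 3.67 ± 1.83 and 4.3 ± 1.43 CPM.

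The first comparison asks whether the schedule of rich and poor medium sets the mean level of these transcripts over the day. By sample titles, 7 members passed both thresholds of the study as lower in LH than in HL and the same 7 as lower in HH than in HL: Atp5g1, Atp5k, Cox6c, Ndufa2, Ndufa5, Ndufc1 and Uqcrc1. The thresholds were P under 0.01 over the 3 treatments and P under 0.05 for the comparison, in edgeR's quasi-likelihood test with collection as a term, and neither is adjusted over genes. The 7 are 8.54% of the members, beside 0.730% of all genes called lower in LH than in HL and 0.745% called lower in HH than in HL. No member passed as higher in either comparison (0.429% and 0.459% of all genes). With Benjamini-Hochberg adjustment over all genes, 0 members and 0% of all genes passed at 0.05 in any of the 3 comparisons. Both comparisons use the same HL libraries, so the shared calls are not separate results. Leaving out the libraries of 1 replicate number of a treatment gave 3 to 9 members in each comparison, beside 0.361% to 1.01% of all genes called lower in LH than in HL and 0.369% to 1.69% in HH than in HL, with 3 without HL replicate 4 (Atp5g1, Ndufa2 and Ndufs5) and 4 without HL replicate 2, HL replicate 3 or HH replicate 2, where 0.369% to 0.670% of all genes were called lower. Atp5g1 and Ndufa2 were among these 3 or 4 each time.

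The sizes were small. Ndufa5, an accessory subunit of the arm of complex I that lies in the matrix (chr6:24518666-24528013, minus strand), had a lowest, median and highest value of 115.4, 166.4 and 249.1 CPM in HL, of 111.9, 148.7 and 200.2 CPM in LH and of 104.3, 155.4 and 201.6 CPM in HH. The ranges overlapped over most of their length. Its log2 fold change was -0.25 ± 0.08 (SE) in LH against HL (edgeR adjusted p = 0.472) and -0.28 ± 0.08 in HH against HL (edgeR adjusted p = 0.351).

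Atp5g1, a gene for the c ring of ATP synthase (chr11:96068852-96075670, minus strand), ran from 137.9 over a median of 164 to 225.8 CPM in HL, from 116.1 over 155.5 to 184.5 CPM in LH and from 111.4 over 151.6 to 231.3 CPM in HH. The highest single library was in HH, although the HH median was the lowest. Its log2 fold change was -0.21 ± 0.06 in LH and -0.18 ± 0.06 in HH against HL. For Atp5k, the e subunit of the membrane part (chr5:108433244-108434448, minus strand), the means were 366 ± 45.5 CPM in HL (n = 21), 334.6 ± 39.4 CPM in LH (n = 22) and 334.2 ± 49 CPM in HH (n = 19).

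Ndufa2, an accessory complex I subunit with a thioredoxin-like fold, had 277.6 ± 34.4 CPM in HL, 247.7 ± 33.4 CPM in LH and 248.4 ± 33.4 CPM in HH, a log2 fold change of -0.22 ± 0.07 in LH and -0.23 ± 0.07 in HH. Ndufc1, a small membrane subunit of complex I (chr3:51404677-51408988, minus strand), had 181 ± 16.1, 171.5 ± 21.6 and 165.5 ± 15.5 CPM in HL, LH and HH, a difference from HL of -0.12 ± 0.05 in LH and -0.19 ± 0.05 in HH. Cox6c (chr15:35925886-35938246, minus strand) had 593.4 ± 51, 544.5 ± 71.8 and 540.8 ± 63.3 CPM. Uqcrc1, a core protein of complex III (chr9:108936633-108949623, plus strand), had 134 ± 12.8, 123.9 ± 15.6 and 123.4 ± 14.8 CPM. The log2 fold changes of Cox6c, Uqcrc1 and Atp5k lay between -0.20 and -0.15 in both comparisons. In each of the 7 genes, HL and the other treatments overlapped over libraries.

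**Figure D2:**
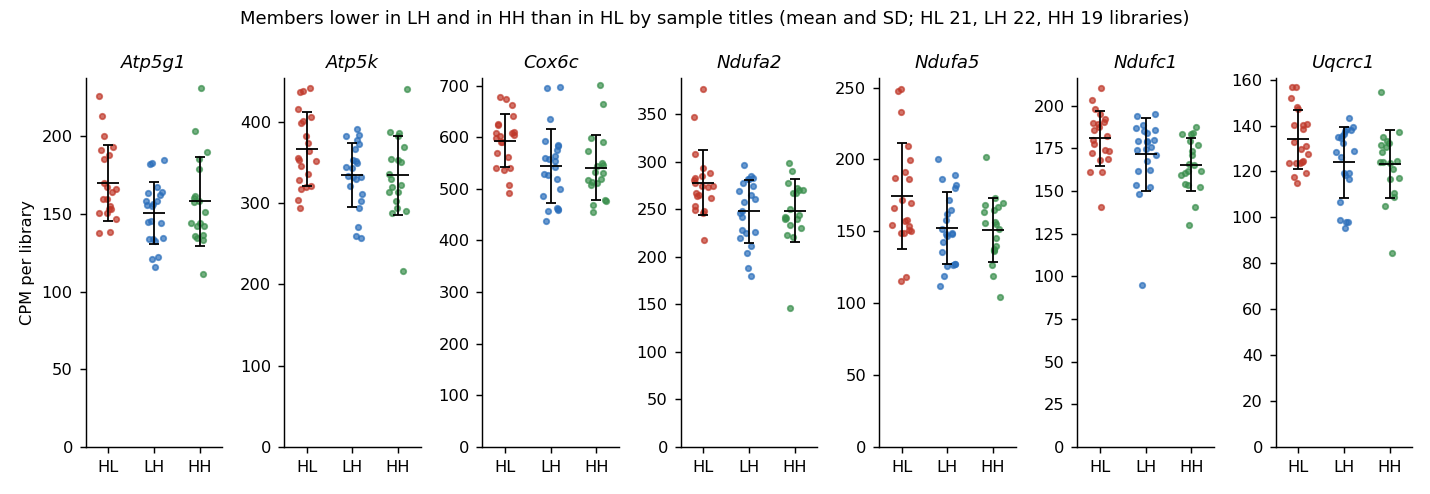
CPM in every library for the 7 members past both thresholds by sample titles (points; black, mean and SD; HL 21, LH 22 and HH 19 libraries; axes start at 0). In each panel the HL mean is the highest, for example 174.5 CPM for Ndufa5 against 152.4 CPM in LH and 151.1 CPM in HH, and the clouds of points overlap.

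Most other members lay on the same side by titles. In LH against HL, 69 of 82 members were below 0, with a median log2 fold change of -0.07, and in HH against HL 61 of 82, also with a median of -0.07, while the medians of all genes were 0.00 in both. By complex, the median in LH against HL was -0.08 for complex I, 0.01 for complex II, -0.07 for complex III, -0.05 for complex IV and -0.10 for complex V. The 3 genes called in complex I are accessory subunits, and no core subunit was called, although all 7 core subunits were below 0 in LH against HL. In complex V, the 2 genes called belong to the membrane part and stalk, where the median was -0.11, and the catalytic F1 subunits had a median of -0.04. Ribosomal protein genes, a list added after the data were seen, had medians of -0.06 in LH and -0.02 in HH against HL, with 61 and 44 of 77 genes below 0 and 4 of 77 called lower in each comparison, and their part in the members' values was not tested. With the library total as the scale in place of TMM, the members' medians were -0.03 and -0.02 where those of all genes were 0.03 and 0.05, and 1 member was called lower in each comparison (0.339% and 0.301% of all genes). The spread was smaller than for most genes: the median biological coefficient of variation was 17.9% for members and 27.5% for all genes. The members' median level is also above that of all genes, and genes of like level were not compared.

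By library number the calls were others. No member was called lower in LH than in HL (0.386% of all genes), and 1 was called higher (0.955%). That was Ndufa5, which had the opposite sign by titles. Its level by number was 154 ± 30.1 CPM in HL, 176.9 ± 31.6 CPM in LH and 151.1 ± 22.3 CPM in HH (n = 19 each), a log2 fold change of 0.26 ± 0.07 in LH against HL (edgeR adjusted p = 0.478). Among the other 6, the fitted value was also above 0 in LH against HL by number, from 0.03 for Ndufc1 to 0.14 for Cox6c, none of them called with all libraries. The mean CPM ran the other way for Ndufc1 (174.8 in LH and 178.9 in HL) and Atp5k (351.6 and 354.3). In HH against HL by number, 0 members were called lower (0.349% of all genes) and 0 higher (0.220%), and each of the 7 was still below 0, from -0.11 for Ndufc1 to -0.03 for Cox6c. Without HH collection 6 replicate 3, by number 4 members were called higher in LH than in HL (Cox6c, Ndufa5, Ndufb10 and Uqcrc1, beside 0.970% of all genes) and 2 lower in HH than in HL (Atp5k and Ndufc1, beside 0.561%). The members' median by number was -0.01 in LH against HL and -0.03 in HH against HL.

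In HH against LH, no member was called lower (0.429% of all genes) or higher (0.481%) by titles, with a median of -0.01. The smallest P were those of Sdha, the flavoprotein subunit of complex II, at 112.4 ± 14.8 CPM in LH and 104.5 ± 8.82 CPM in HH (log2 fold change -0.10 ± 0.05), of Ndufb8, at 55.1 ± 14.4 and 61.4 ± 14.5 CPM, and of Sdhaf1, an assembly factor of complex II, at 4.12 ± 2.02 and 5.65 ± 2.02 CPM. None of these 3 passed the test over treatments. By number, 1 member was called lower in HH than in LH (1.17% of all genes), again Ndufa5 with -0.30 ± 0.07, and 0 higher (0.455%). Without HH collection 6 replicate 3 the count by number was 7 beside 1.20% of all genes (Atp5k, Cox6c, Ndufa2, Ndufa5, Ndufb10, Ndufc1 and Uqcrc1), 6 of which are among the 7 called by titles against HL. Most LH libraries by number are HL libraries by title, so this comparison shares most of its libraries with that of HH against HL by title. The sign of the fitted log2 fold change of LH against HL differed between titles and numbers for each of the 7 genes called by titles. Most HL and LH libraries exchange names between titles and numbers, so this change of sign is largely built in. The mean CPM of Atp5k and Ndufc1 was lower in LH than in HL under both. HH had the lowest of the 3 mean levels in each of the 7 genes by number, and by title in all but Atp5g1 and Ndufa2.

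**Figure D3:**
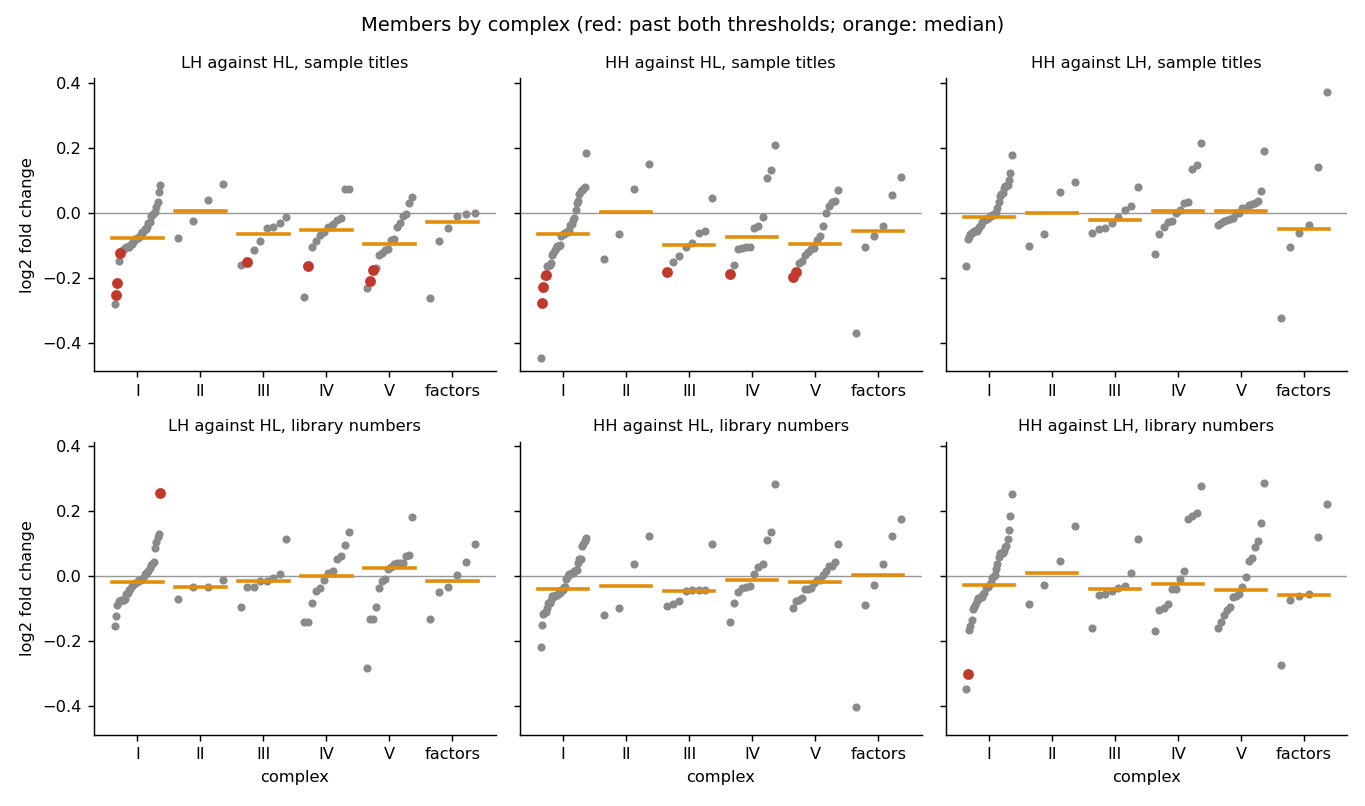
Log2 fold change of each member by complex in 3 comparisons (columns), by sample titles (top) and by library numbers (bottom); red points passed both thresholds, orange bars are medians. By titles the 7 called members lie below 0 in LH and in HH against HL; by numbers Ndufa5 lies above 0 in LH against HL and below 0 in HH against LH.

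Promoter sequence is shown for the called members that held a motif within the bases searched, and for 2 genes of the c subunit, one with a match and one without. Promoter windows from 250 bases before to 50 after the start site (RefSeq, GRCm38.p6) were found for 67 of the 82 members. They were searched on both strands for 4 exact motifs, with no allowance for mismatches, and no 2 motifs matched the same bases in a member. The NRF1 palindrome of 10 letters, whose letters are the capitals of Atp5k in the stretches shown, was in 5 of 67 members (7.46%), beside 1.07% of all 27025 genes of the table and 2.33% of the genes tested. The ETS motif CCGGAAG was in 19 members (28.4%), beside 9.93% and 19.8%. The YY1 motif AAGATGGCG was in 7 members (10.4%), beside 1.64% and 3.55%, and the ERR motif TCAAGGTCA in 2 members, Atp5g3 and Sdhd (2.99%), beside 0.466% and 0.305%. A match is a description of these letters and not a measured site.

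Of the 7 called members, Atp5k and Uqcrc1 held the NRF1 palindrome, Atp5k also the ETS motif, which lies past the start site outside the stretch shown, and Ndufc1 the YY1 motif. Neither Atp5g1 nor Ndufa5 held any of the 4, and Cox6c and Ndufa2 are not in the table. The stretches below run 5′ to 3′ on the strand of the gene, with matches in capitals. Those of Atp5k (chr5:108434400-108434499, minus strand), Atp5g1 (chr11:96075632-96075731, minus strand) and Atp5g2 (chr15:102671048-102671147, minus strand) are the 100 bases before the start site, and those of Uqcrc1 (chr9:108936668-108936697, plus strand) and Ndufc1 (chr3:51408915-51408944, minus strand) are 30 bases around a match just past it.
Atp5k: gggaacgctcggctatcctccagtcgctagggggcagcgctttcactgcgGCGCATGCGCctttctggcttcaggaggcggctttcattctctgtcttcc
Atp5g1: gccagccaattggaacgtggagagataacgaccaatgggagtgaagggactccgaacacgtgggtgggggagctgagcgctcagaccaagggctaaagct
Atp5g2: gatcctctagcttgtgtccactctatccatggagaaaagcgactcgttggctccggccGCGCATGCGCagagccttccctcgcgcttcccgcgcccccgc
Uqcrc1: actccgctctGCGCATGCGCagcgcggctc
Ndufc1: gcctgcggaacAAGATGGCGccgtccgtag
Atp5g1 and Atp5g2, which code for the same mature protein, differ in these windows: the palindrome is in Atp5g2, the gene with the lower count. The window of Atp5g2 lies inside the gene as annotated in GENCODE (chr15:102662864-102672352), downstream of the start annotated there.

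The next comparison asks whether the members changed over the 6 collections. With edgeR's quasi-likelihood test over collections and Benjamini-Hochberg adjustment, 0 members passed in HL (0.301% of all genes), LH (2.93%) and HH (0.293%) by titles. At an unadjusted P under 0.05 the counts were 4 of 82 in HL (8.98% of all genes), 6 in LH (16.9%) and 17 in HH (8.61%), so that HH alone had a share of members, 20.7%, above the share of all genes. DESeq2 called 0 in HL (0.517% of all genes), 3 in LH (Atp5g3, Cox7c and Cox8a, beside 6.72% of all genes) and 2 in HH (Atp5g1 and Uqcrq, beside 2.15%), so that its shares of members, 3.66% in LH and 2.44% in HH, were below or near those of all genes. In LH collection 2 replicate 4, Atp5g3, Cox7c and Cox8a had 494.2, 292.0 and 319.2 CPM, the highest value of each in LH.

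The HH libraries carry the same name by title and by number, so their time course does not depend on the assignment. In HH, the members with the smallest P over collections were Atp5g1 and Uqcrq. Uqcrq is a small subunit of complex III. Its 4 libraries at the first collection had a mean of 264.4 ± 14 CPM and a highest value of 280.9 CPM, the 11 libraries of collections 2 to 5 had 167.1 to 191.5 CPM, and the 4 of the last collection 183.5, 194.1, 226.2 and 248.9 CPM. The first collection lay above all others without overlap. The adjusted p was 0.153 with all libraries by title in edgeR's fit, 0.123 with the HH libraries alone and 0.0409 by library number, where the estimate of spread comes from other groupings of HL and LH.

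Atp5g1 in HH had 203.4, 185.2, 190.1 and 231.3 CPM at the first collection, and its mean then was 159, 153.9, 151.3, 145.4 and 129 CPM at the following ones. Every library of the first collection was above every later one. Its adjusted p in edgeR was 0.113 by title, 0.175 with HH alone and 0.017 by number. Ndufa1, a membrane subunit of complex I encoded on the X chromosome, had 84.1 ± 13 CPM (n = 4) at the first collection and 122.9 ± 60.3 CPM (n = 4) at the last, where 2 libraries had 155.6 and 191.5 CPM and the other two 71.7 and 72.8 CPM. Its adjusted p was 0.161 by title in edgeR.

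With HH alone in the fit, 0 members passed (0.436% of all genes). By number, 2 members passed in HH (0.803% of all genes), Uqcrq and Atp5g1. By number, 2 also passed in LH (1.05%), Atp5g1 and Uqcrb, and 0 in HL (0.394%).

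By library number, Atp5g1 had its highest mean at the first collection in HL, LH and HH. In LH its mean by number was 209.9 ± 17.7 CPM (n = 3) at the first collection and 159.3, 156.3, 150.9, 185.2 and 131.9 CPM at the following ones, the fifth from 1 library. In HL it was 193.6 ± 6.14 CPM (n = 3) and then 154.1, 171.9, 154.1, 147 and 137 CPM. In HH the last collection, at 129 ± 11.8 CPM, was also the lowest. By titles LH had 137.2 ± 17 CPM (n = 3) at the first collection and 143.6 to 161.7 CPM later (edgeR adjusted p = 0.848). HL by titles had 193.6 ± 6.14 CPM (n = 3) at the first collection and its highest mean, 202.1 ± 30.8 CPM (n = 3), at the third. A first collection above all later ones was thus not seen by title in HL or LH. Uqcrb, a small subunit of complex III, had by number 99 ± 6.79 CPM at the first LH collection, 93.7, 78.3 and 84.7 CPM at the next ones, 44.5 CPM in the 1 library of the fifth and 63.7 ± 16.2 CPM at the last (edgeR adjusted p = 0.0101).

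**Figure D4:**
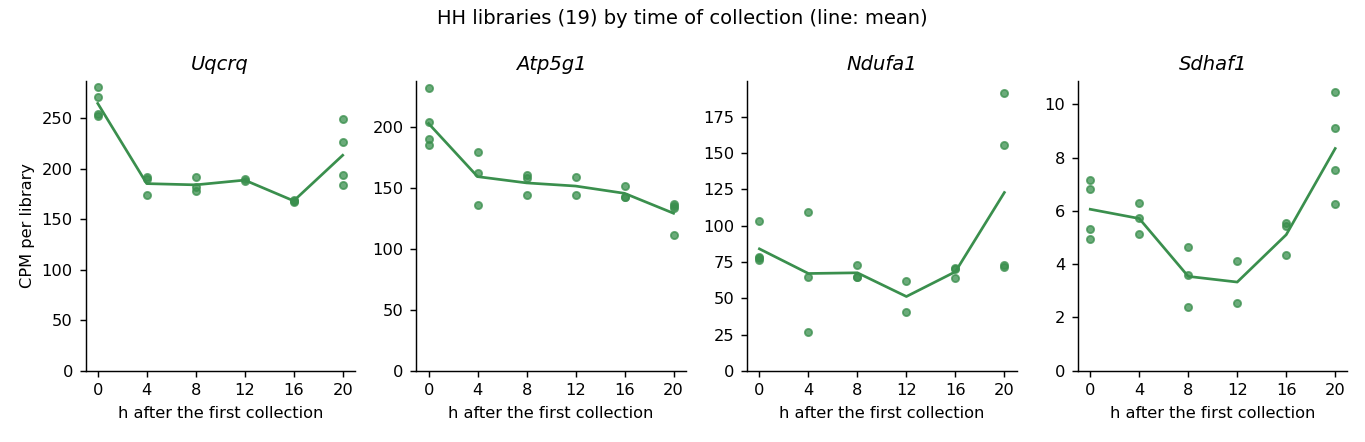
CPM in each of the 19 HH libraries by hours after the first collection (points; line, mean; axes start at 0) for Uqcrq, Atp5g1, Ndufa1 and Sdhaf1. Uqcrq and Atp5g1 are highest at the first collection, Sdhaf1 is lowest at 8 to 12 h (3.54 and 3.33 CPM), and Ndufa1 at the last collection is spread from 71.7 to 191.5 CPM.

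The first HH collection stood out over the members at large. This contrast was chosen after the values were seen and carries no test. Of the 82 members, 74 (90.2%) had a higher mean at the first HH collection than over collections 2 to 5, beside 52.4% of all genes, with a median log2 difference of 0.21 against 0.01. In 7 members (8.54%) each library of the first collection was above each of collections 2 to 5, beside 1.32% of all genes and 27.3% of ribosomal protein genes (21 of 77). The summed level of the members was 13523 ± 704 CPM (n = 4) at the first collection and between 11437 and 12009 CPM on average at collections 2 to 5. At the last collection it was 12741 ± 2458 CPM (n = 4), since HH collection 6 replicate 3 had 16427 CPM and the other three 11457 to 11565 CPM.

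Other transcripts moved with these libraries. Ribosomal protein genes had a median log2 deviation of 0.998 in HH collection 6 replicate 3, where the members had 0.53, and of 0.498 in HH collection 6 replicate 2, where the members had 0.11. These are the 2 libraries with the high values of Ndufa1 at the last collection. At the first HH collection 76 of 77 of them (98.7%) had a higher mean than at collections 2 to 5. The mRNAs of mitochondrial DNA took 3.02% ± 0.574 of counts at the first HH collection and 1.74% to 2.47% on average later. Their part in the members' courses was not tested. In HL the summed level went from 12881 ± 528 CPM at the first to 12000 ± 933 CPM at the last collection by titles. In LH it was 11023 ± 1185 CPM at the first and 12064 ± 1963 CPM at the last by titles, but 13088 ± 1005 CPM and 10848 ± 1029 CPM by number, so that the sign of this difference depends on the assignment.

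**Figure D5:**
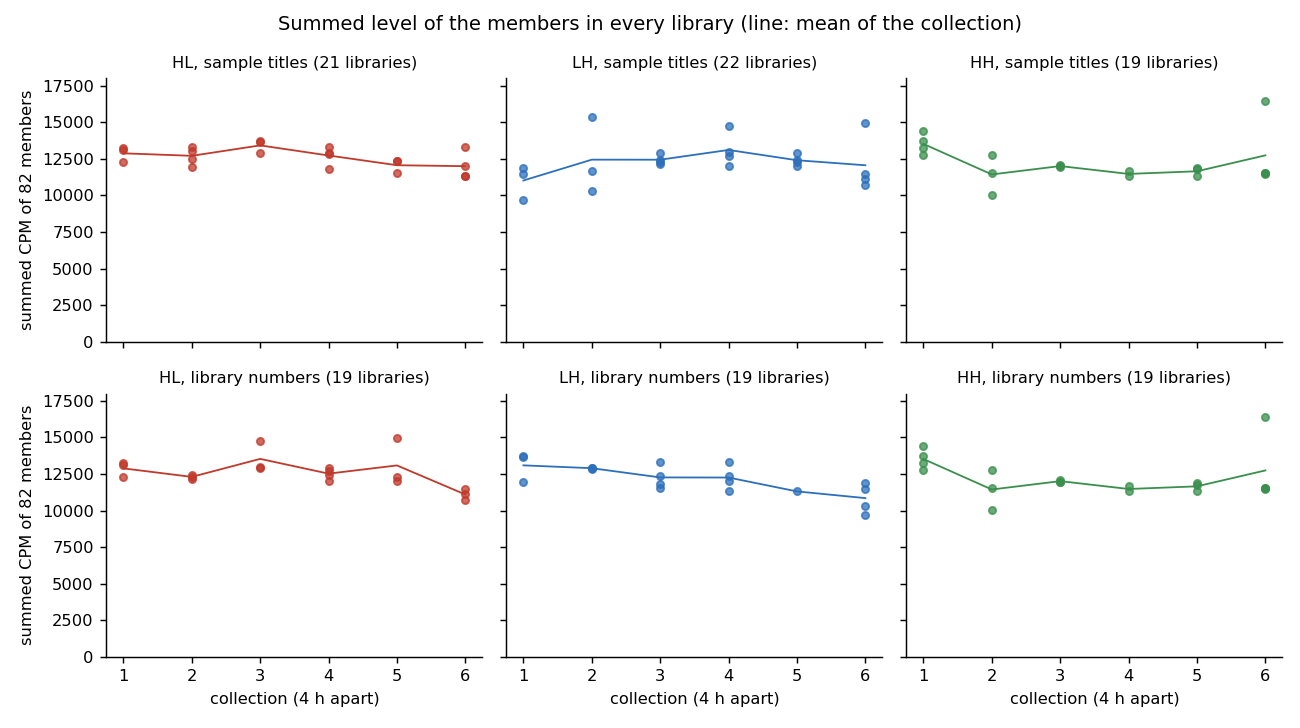
Summed CPM of the 82 members in every library by collection (points; line, mean of the collection; axes start at 0), by sample titles (top) and library numbers (bottom). HH is the same in both rows, with 13523 CPM on average at the first collection and 1 library at 16427 CPM at the last; the first LH collection averages 11023 CPM by title and 13088 CPM by number.

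In HL and LH by titles the smallest P belonged to other members. In HL these were Cox7a2l, a factor of supercomplex assembly (344.2 ± 47.6 CPM at the first and 448.5 ± 53.2 CPM at the last collection, edgeR adjusted p = 0.282), Ndufa10 (lowest at the second collection with 101.1 ± 13.9 CPM, adjusted p = 0.41) and Ndufv3. In LH they were Cox8a (106.5 ± 27.3 CPM at the first and 214.8 ± 90.8 CPM at the second collection, edgeR adjusted p = 0.198), Ndufs3, a core subunit of complex I (28.9 ± 14.4 CPM at the second and 51.3 ± 4.03 CPM at the third, adjusted p = 0.24), and Cox4i1 (887.1 ± 145 CPM at the fourth collection against 600.1 to 673.6 CPM on average at the others, adjusted p = 0.253). None passed the adjustment. The second LH collection by title has 3 libraries, among them replicate 2 with 104912 counts and replicate 4 with the next lowest total. Replicates 1, 2 and 4 had 153.7, 171.6 and 319.2 CPM for Cox8a and 22.16, 19.06 and 45.39 CPM for Ndufs3.

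Whether the courses differed between treatments was tested by the interaction of treatment and collection. In edgeR, 0 members passed the adjusted threshold (0.128% of all genes), 19 of 82 (23.2%) had an unadjusted P under 0.05 beside 11.6% of all genes, and DESeq2 called 1, Ndufa12 (1.37% of all genes). By number 0 members and 0% of all genes passed. Ndufa12, an accessory subunit of complex I, had its highest mean by titles at the first collection in HH (302 ± 32.9 CPM, n = 4), at the third in HL (277.8 ± 11 CPM, n = 3) and at the fourth in LH (273.5 ± 20.6 CPM, n = 4), with an edgeR adjusted p of 0.192 by title and 1 by number. Ndufb8 (edgeR adjusted p = 0.284) and Uqcrq (0.295) followed.

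The last comparison asks for a rhythm of 24 h. JTK_CYCLE, the rank test used by the study, was run within each treatment at P under 0.01 with an exact null distribution and correction over phases. By titles it called 1 member in HL (0.474% of all genes), 0 in LH (0.918%) and 2 in HH (1.25%). By number it called 0 in HL (1.06%), 2 in LH (1.36%), Ndufa3 and Ndufv3, and the same 2 in HH (1.26%). The member in HL was Ndufv3, a small subunit of the NADH-oxidizing module of complex I (chr17:31520115-31531331, plus strand). Its means by title were 172.8, 170.8, 196, 196.5, 149.3 and 145.3 CPM over the collections, with a peak at 8 h after the first collection (exact JTK P = 0.00208).

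The members called in HH were Sdhaf1 and Uqcrq. Sdhaf1, which helps insert iron-sulfur clusters into Sdhb, had 6.06 ± 1.1 CPM at the first HH collection, 3.33 to 5.71 CPM on average at collections 2 to 5 and 8.34 ± 1.83 CPM at the last, with a peak at 22 h (exact JTK P = 0.0012). Single values of Sdhaf1 rest on few reads. Uqcrq peaked at 0 h (exact JTK P = 0.00852). Without HH collection 6 replicate 3, Sdhaf1 was still called and Uqcrq was not. Sdhaf1 was also not called without HH replicate 1, Uqcrq without HH replicate 2 or 3, and neither without HH replicate 4. Ndufv3 was not called in HL without HL replicate 1, 2 or 4. In LH by title the smallest P were those of Ndufa12 (exact JTK P = 0.011), Atp5d and Atp5j2 (exact JTK P = 0.0257 for both), and the count was 3 without LH replicate 1 (0.805% of all genes) and 1 without LH replicate 4 (0.752%). In LH by number, Ndufv3 peaked at 4 h (exact JTK P = 0.00215) and Ndufa3 at 4 h (exact JTK P = 0.00472).

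The other genes of the pathway were counted from lists outside the rule. Of 44 assembly factors and 16 regulators tested, 0 passed both level thresholds in any of the 3 comparisons by titles, 0 changed over collections and 0 were rhythmic. By number, the copper chaperone gene Sco2 changed over collections in LH (edgeR adjusted p = 0.0339) and Coa6 was rhythmic in HL (exact JTK P = 0.000478). Of 15 enzymes of the tricarboxylic acid cycle, 1 passed, Mdh2, the mitochondrial malate dehydrogenase, with 372.7 ± 42.1 CPM in HL, 347.5 ± 36.6 CPM in LH and 354.8 ± 40.7 CPM in HH. It was lower in LH (log2 fold change -0.14 ± 0.05) and in HH (-0.13 ± 0.05) than in HL, and by number its value in LH against HL was 0.04. Dlst was the 1 enzyme of this list with a rhythm, in HL by title (exact JTK P = 0.00932), and by number 0 were called in any test. Of 11 electron and nucleotide carriers, Slc25a3, the phosphate carrier, changed over collections in LH by title (edgeR adjusted p = 0.00547) but not by number (0.742).

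Of 12 genes of mitochondrial DNA tested, 0 passed the level thresholds by titles. By number mt-Nd4 was called higher in LH than in HL (log2 fold change 0.32 ± 0.08, against -0.15 by title) and lower in HH than in LH (-0.22 ± 0.08, against 0.02 by title). Over collections mt-Nd4 changed in LH (edgeR adjusted p = 0.0304 by title and 0.0283 by number) and was rhythmic there under both (exact JTK P = 0.000714 and 0.00191), and by number also in HL (exact JTK P = 0.000745). The LH libraries by title and by number are mostly different ones. In HH mt-Nd2 changed (edgeR adjusted p = 0.0158 by title and 0.000236 by number), and by number mt-Nd2 also changed in LH (0.0152) and mt-Nd1 in HH (0.0221). These genes code for membrane subunits of complex I. The list's median in LH against HL was -0.05 by title and 0.08 by number. In the median, the mitochondrial genes lay at -0.15 in HH against HL by titles and -0.13 by number, with 12 of 12 and 10 of 12 genes below 0.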

How the data were processed

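RNA of 62 libraries was counted per gene by the authors, who deposited 121 tables of raw counts, 1 per library and sequencing run. Per the labels, reads were handled with bcl2fastq, STAR 2.6.0a and HTSeq 0.9.1 on mm10. The counts are named as those of uniquely aligned reads, and the annotation release and the use of strand are not stated in the sources used. Lines that name no gene held 50.4% to 64.0% of a run's reads and were left out. Runs of a library (59 with 2) were summed, and CPM used the library total, from 104912 to 11619095 counts with a median of 5825881. Intervals and limits of a count of 0 cover counting error only.

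Genes with at least 1 CPM in 3 libraries were fitted with edgeR 4.0.16 (TMM, quasi-likelihood) in R 4.3.3. Levels were fitted by treatment and collection, with P under 0.01 over the 3 treatments and under 0.05 per comparison, and time courses by collection within treatment, with Benjamini-Hochberg adjusted P under 0.05. JTK_CYCLE was rebuilt in Python 3.11.15 with a period of 24 h, phases every 2 h and P under 0.01. On simulated data, 200 of 200 genes changed by 2-fold in LH against HL were found with 84 calls among 12892 unchanged genes. The changes were placed only in genes above a minimum level and are larger than those of the called members. Finding differences as small as theirs was not tested. DESeq2 1.42.0 and other settings were alternatives. Titles gave the groups, and the library numbers of the study's read summary were the alternative, with 57 libraries.

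Named genes were those past the thresholds (the 5 with the smallest P where more passed), the 3 with the smallest P in each test, alternative forms of a subunit and the 5 highest and 5 lowest in level. Subunits named as extremes of complexes II and III, and genes called only under an alternative, were added after their values were seen. The members and lists were chosen with earlier results of these data known. Near copies of 3′ ends were searched with BLAST 2.17.0 in GENCODE M21 transcripts, whose positions on GRCm38 (mm10) are given. Promoters are from RefSeq.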

Additional observations from a re-analysis of the deposited data

Results flagged for a closer look

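In groups of 4 libraries of 1 treatment and collection, 6 of 54 group and quantity pairs had a library farther from the others than Dixon's 95% critical value, where chance gives about 1 in 20. HH collection 6 replicate 3 accounted for 5 of them. Its summed level of the members was 16426.7 CPM, with the other three at 11456.7 to 11565.3 CPM. By complex it had 5467.5 CPM for complex I (others 3877.2 to 3968.4), 349.1 CPM for complex II (others at most 287.6), 4160.0 CPM for complex IV (others 2568.9 to 2796.8) and 4132.9 CPM for complex V (others 2913.7 to 3058.1). The sixth was LH collection 6 replicate 1, by title, with 4810.4 CPM for complex I against 3709.5 to 3779.9 CPM in the others.

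The median log2 deviation of ribosomal protein genes was 0.998 in HH collection 6 replicate 3 and 0.498 in HH collection 6 replicate 2, and its part in the members' level was not tested.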

How the results depend on the processing

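Members past both level thresholds numbered 7 in LH against HL, 7 in HH against HL and 0 in HH against LH. The share of all genes called in either direction follows each set of counts in the same order. By library number the counts were 1, 0 and 1 (1.34%, 0.568% and 1.63%), and 4, 2 and 7 (1.45%, 0.917% and 1.68%) when HH collection 6 replicate 3 was also left out, an alternative chosen after seeing the data. With no filter on low counts they were 3 and 3 against HL (1.87% and 1.92%), with the second sequencing run alone 2, 1 and 1 (0.913%, 0.980% and 0.898%), and with Benjamini-Hochberg adjustment 0 and 0 against HL (0%). Leaving out 1 replicate number of a treatment gave 3 to 9 in each comparison with HL and 0 in HH against LH. All genes called lower were then 0.361% to 1.01% in LH against HL, 0.369% to 1.69% in HH against HL and 0.301% to 1.29% in HH against LH.

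By library number the log2 fold change in LH against HL turned to 0.0655 for Atp5g1, 0.1052 for Ndufa2, 0.1377 for Cox6c, 0.2577 for Ndufa5 and 0.0614 for Atp5k, and without HH collection 6 replicate 3 also to 0.0663, 0.1087, 0.1435, 0.258 and 0.0644 in the same order. Most HL and LH libraries exchange names between titles and numbers, so these are not separate results.

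Changes over collections, 0 in each treatment, were 3 in LH and 2 in HH with DESeq2 (6.72% and 2.15% of all genes), 2 and 2 by library number (1.05% and 0.803%), 3 and 2 by number without HH collection 6 replicate 3 (1.60% and 0.614%), and 3 and 7 with no filter (6.05% and 2.40%). The second run alone gave 2 in HH (0.352%), and leaving out replicates gave 0 to 2 in HH (2 without HH replicate 4, Ndufa1 and Uqcrfs1, at most 0.369%). It gave 0 in HL (0.0451% to 0.655%) and 0 in LH (0.339% to 5.55%). The interaction had 1 with DESeq2 (1.37%), 7 with no filter (5.19%) and 0 when replicates were left out (at most 0.918%).

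Rhythmic members in HL, 1 by title, were 2 with the first run alone (0.395% of all genes), 0 with the second (0.277%), 0 by number (1.06%) and 0 to 1 with replicates left out (0.233% to 0.609%). In LH, 0 by title, they were 7 at P under 0.05 (3.26%), 1 with a cosine fit (3.27%), 2 by number (1.36%), 1 with the second run alone (0.875%), 1 without the library under 1000000 counts (0.950%) and 0 to 3 with replicates left out (0.512% to 0.918%). In HH, 2 by title, they were 1 without collection 6 replicate 3 (1.06%), 6 at P under 0.05 (3.72%), 6 with a cosine fit (2.87%), 1 with the first run alone (1.08%), 0 with the second (1.02%) and 0 to 2 with replicates left out (0.406% to 1.25%). The cause of these differences was not tested.

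Over all alternatives, 167 counts stayed within 1.5 times and 55 did not. The 167 include counts of 0 that stayed at 0. They also include rhythm counts of a treatment when libraries of another were left out, which could not change. The split is therefore no measure of stability. Replicate numbers do not pair the samples: same-numbered libraries had a median correlation of deviations of -0.019 over 53 pairs, and a replicate block gave 7, 7 and 0 members (1.04%, 0.978% and 0.745% of all genes). Lowest precision is that of the library with 104912 counts, and of members at a few CPM.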
